A study of Rattus norvegicus with 18 samples.

Results

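The SLC25 family was described across 18 RNA-seq libraries of the H9C2 line, which was established from embryonic rat heart tissue. Its members were taken as the protein-coding rows of the deposited gene table whose symbol starts with Slc25a and a number, which gave 44 of the 32545 genes in the table. The series asked how microsecond pulsed electric fields act on heart muscle cells in culture. It holds 6 groups of 3 libraries. Cells of group P had 50 µmol/L of an agent named only as PE in the medium for 48 h and no pulses. In P_ES10 and P_ES50 the same PE exposure was followed by 10 or 50 pulses. ES10 and ES50 cells received 10 or 50 pulses without PE, and NC cells received neither. Each pulse lasted 100 µs at 1500 V/cm. All groups share the one line, and the labels only number the replicates, so p-values measure the spread between these libraries, which may be technical. The time from the pulses to harvest is not given in the sources used here.

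Most SLC25 proteins are carriers of the mitochondrial inner membrane, which is otherwise closed to most metabolites. Each carrier folds as a bundle of membrane helices built from repeated motifs and, with few exceptions, moves 1 class of substrate: ADP against ATP, phosphate, the acids of the citric acid cycle, amino acids, acylcarnitines, cofactors or iron. In heart muscle the ADP/ATP and phosphate carriers are among the most abundant mitochondrial proteins, and they link ATP synthesis to the contracting fibres. The genes lie in the nucleus, and most of their products are imported into mitochondria.

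Promoter windows were shown for genes whose changes are described further on. RefSeq (build GRCr8) gave a single window, of 250 bases before to 50 bases after the gene start, for 36 of the 44 members, 25 of them among the members tested. Slc25a25 and Slc25a33 were the tested members whose window held the cyclic AMP response element TGACGTCA on either strand. These were 2 of 25 windows (8%), against 3.42% of the windows of all tested genes and 1.91% of all windows. Slc25a4 and Slc25a5, the ADP/ATP carrier genes, are shown beside them. Capitals mark TGACGTCA, the E-box CACGTG, the ETS motif CCGGAAG and the GC box GGGCGG, each on either strand. The windows lie at chr3:36116532-36116831 (minus strand), chr5:165502924-165503223 (minus strand), chr16:52805271-52805570 (plus strand) and chrX:120897366-120897665 (plus strand).
Slc25a25: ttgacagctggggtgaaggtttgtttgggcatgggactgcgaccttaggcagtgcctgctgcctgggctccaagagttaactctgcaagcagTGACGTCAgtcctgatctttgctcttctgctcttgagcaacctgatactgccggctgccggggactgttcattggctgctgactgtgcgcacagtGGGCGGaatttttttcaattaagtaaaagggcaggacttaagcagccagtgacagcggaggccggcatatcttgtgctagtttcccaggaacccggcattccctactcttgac
Slc25a33: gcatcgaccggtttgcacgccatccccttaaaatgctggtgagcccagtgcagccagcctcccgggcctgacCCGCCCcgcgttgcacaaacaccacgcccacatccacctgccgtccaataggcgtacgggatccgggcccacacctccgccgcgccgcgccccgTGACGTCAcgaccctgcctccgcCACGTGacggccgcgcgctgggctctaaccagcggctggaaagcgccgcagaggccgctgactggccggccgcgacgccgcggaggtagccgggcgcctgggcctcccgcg
Slc25a4: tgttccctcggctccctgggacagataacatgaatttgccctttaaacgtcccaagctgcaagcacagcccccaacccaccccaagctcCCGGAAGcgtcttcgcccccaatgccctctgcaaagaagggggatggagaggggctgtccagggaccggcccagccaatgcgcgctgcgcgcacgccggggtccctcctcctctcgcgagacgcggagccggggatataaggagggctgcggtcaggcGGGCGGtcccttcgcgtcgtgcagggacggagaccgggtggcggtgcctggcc
Slc25a5: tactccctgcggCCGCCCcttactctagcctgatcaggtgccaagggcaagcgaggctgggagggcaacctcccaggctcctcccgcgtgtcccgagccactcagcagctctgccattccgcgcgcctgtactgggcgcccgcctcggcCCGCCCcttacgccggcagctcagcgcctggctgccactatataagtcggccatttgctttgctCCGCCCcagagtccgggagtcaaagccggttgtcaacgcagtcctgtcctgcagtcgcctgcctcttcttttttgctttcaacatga
The response element started 158 bases before the gene start in Slc25a25 and 84 bases before it in Slc25a33. In Slc25a33 the E-box lay nearer to the start, 61 bases before it. The ETS motif was in 6 of the 25 windows (24%, against 19.4% of the windows of tested genes), among them Slc25a4 and Slc25a3. The GC box was in 21 (84%, against 64.9%). The NRF1 motif was in 0 of the 25 windows and in 11.1% of those of tested genes. These matches describe the letters of the windows, and whether a factor bound there was not measured.

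Reads on genes numbered 14004929 to 17247201 per library. The share of reads on the mitochondrial genome was 5.48% in P, 6.46% in P_ES10, 48.6% in P_ES50, 12.9% in NC, 9.44% in ES10 and 92.1% in ES50. That left 1230554 to 1466851 reads for nuclear genes in ES50 libraries, against 12059244 to 13933169 in NC libraries. On the deposited FPKM scale the median log2 change over all tested genes was between -0.13 and 0.02 in the 7 comparisons of groups, so a change on that scale is close to one relative to the typical gene and is not one relative to all RNA. In bulk RNA, fewer cells and less RNA per cell cannot be told apart. The line is labelled myocardium, and in NC 4 of 10 cardiomyocyte markers reached 1 FPKM, with Myh6, Myh7, Actc1, Nkx2-5, Ryr2 and Nppa at 0.123 FPKM or less. Of the skeletal myoblast markers 3 of 8 reached 1 FPKM (Myod1 at 32.02, Acta1 at 9.60 and Des at 9.10), and of the fibroblast markers 5 of 7 did, led by Col1a1 at 1449 FPKM. None of the 3 endothelial and 4 immune markers found reached 1 FPKM in NC. The summed level of the fibroblast markers was 554 to 580 FPKM in ES50 libraries, against 2407 to 2494 in NC libraries, that of the skeletal myoblast markers 89.4 to 102 FPKM, against 51.3 to 53.4, and that of the cardiomyocyte markers 49.2 to 58.1 FPKM, against 17.4 to 18.9. Of the cardiomyocyte markers, Tnnt2 (40.2 FPKM in ES50, against 12.1 in NC) and Pln (12.3, against 1.64) carried the rise. Tnni3 was lower (0.512 FPKM in ES50, against 2.18 in NC), and Gata4 was at 1.97, against 1.90. Myh6, Myh7, Actc1, Nppa and Nkx2-5 were at 0 FPKM in ES50. The part of these marker shifts in the carrier results was not tested.

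Of the 44 members, 32 passed the filter of at least 1 FPKM in at least 3 libraries and were tested, and 12 did not. The 12 others had at most 1.35 FPKM in any library. Slc25a21 had no reads in any library, and 9 of the 12 had none in ES50. Levels in NC spanned a wide range: 3 members were at 100 FPKM or more, 6 between 10 and 100, 20 between 1 and 10, and 15 under 1. The 3 most abundant were Slc25a4 and Slc25a5, which exchange ADP for ATP, and Slc25a3, the phosphate carrier. In FPKM, which is per length, NC levels were 157 ± 6.90 for Slc25a4, 153 ± 2.23 for Slc25a3 and 137 ± 1.42 for Slc25a5 (SD, n = 3 in every group here and further on). The first pair did not differ beyond their spread. Slc25a39, a glutathione carrier, came next at 41.3 ± 0.460 FPKM, followed by Slc25a28, the iron carrier mitoferrin 2, at 23.1 ± 1.26, and Slc25a36l1, named for its likeness to a pyrimidine nucleotide carrier, at 22.2 ± 1.08, a neighbouring pair within their spread. Together Slc25a3, Slc25a4 and Slc25a5 made up 64.6 ± 0.418% of the summed family FPKM in NC. Reads of Slc25a4, Slc25a5 and Slc25a36l1 may be shared with near-identical copies, and how such reads were counted is not given in the sources used here.

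**Figure D1:**
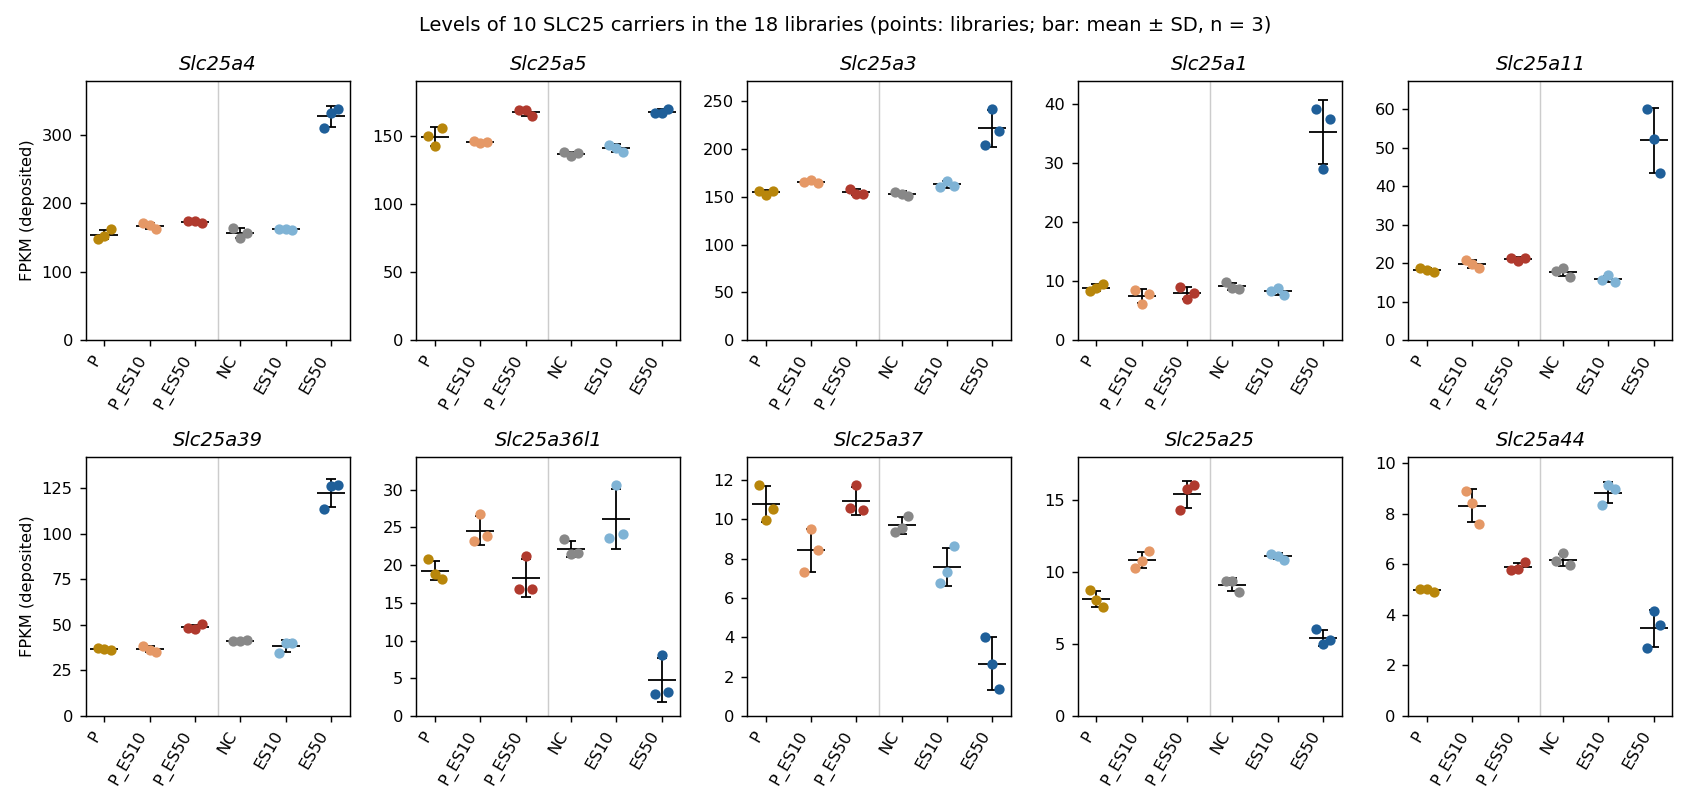
Deposited FPKM (vertical axes, starting at 0) of 10 carrier genes in the 6 groups; points are libraries and bars the mean ± SD (n = 3). Slc25a4, Slc25a1, Slc25a11 and Slc25a39 stand highest in ES50, where all 4 are lower than in NC when scaled to total reads, and Slc25a25 is highest in P_ES50 on this scale and lowest in ES50.

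After 50 pulses without PE, citrate, oxoglutarate, glutathione and ADP/ATP carrier transcripts rose relative to the typical gene (all were lower with scaling to total reads), and iron, folate and ATP-Mg/phosphate carrier transcripts fell. Against NC, 11 of the 32 tested members were higher (34.4%), where 31.9% of all tested genes were, and 9 were lower (28.1%), where 40.1% of all were. The median log2 change was 0.13 over the members and -0.13 over all tested genes. These calls came from limma on log2(FPKM + 1) at a Benjamini-Hochberg adjusted p under 0.05. Scaled to total reads, 0 members were higher and all 32 were lower, as were 96.3% of all tested genes, with a median of -2.43 over all genes. Quantile normalization moved that median to 0.07.

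Among the carriers of di- and tricarboxylic acids, Slc25a1 exports citrate from mitochondria. Its libraries stood at 39.1, 29.0 and 37.5 FPKM in ES50 and at 9.84, 8.77 and 8.71 FPKM in NC. The groups did not overlap, and every ES50 library lay far above every NC library. Slc25a1 rose by 1.83 ± 0.12 on the log2 scale (SE, adjusted p = 1.46e-09), but was at -1.43 with scaling to total reads. Slc25a11, which exchanges oxoglutarate for malate in the malate-aspartate shuttle, was at 60.1, 52.2 and 43.4 FPKM in ES50 and at 17.9, 18.7 and 16.5 in NC. It rose by 1.49 ± 0.09 (adjusted p = 4.81e-10), but was at -1.87 with scaling to total reads. Slc25a10, the dicarboxylate carrier, did not pass the test (0.33 ± 0.19, adjusted p = 0.125), with ES50 libraries from 4.89 to 11.3 FPKM around the NC range.

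Of the 5 tested adenine nucleotide and phosphate carriers, 3 rose and 2 fell. Slc25a4 was at 310, 333 and 338 FPKM in ES50, against 164, 150 and 157 in NC, which is 2.09 times the NC mean. All ES50 libraries lay above all NC libraries. Its log2 change was 1.06 ± 0.04 (adjusted p = 3.67e-12), 0.40 after quantile normalization and -2.46 with scaling to total reads. Slc25a3 rose by 0.52 ± 0.05 and Slc25a5 by 0.29 ± 0.03 (adjusted p = 4.72e-08 and 5.79e-07), and both changed sign with scaling to total reads (-2.98 and -3.20) and after quantile normalization (-0.06 and -0.28). The ATP-Mg/phosphate carriers, which move adenine nucleotides into and out of the matrix in response to calcium, went the other way. Slc25a24 was at 9.53, 10.2 and 10.6 FPKM in ES50, against 16.8, 15.97 and 16.2 in NC, and Slc25a25 at 6.04, 4.97 and 5.29 FPKM, against 9.37, 9.38 and 8.61. Neither gene's groups overlapped. They fell by 0.64 ± 0.08 and 0.66 ± 0.07 (adjusted p = 2.21e-06 and 7.70e-07).

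Cofactor and nucleotide carriers split, with 3 of 8 tested higher and 1 lower. Slc25a39, which imports glutathione, reached 113, 126 and 127 FPKM in ES50, against 40.9, 41.2 and 41.8 in NC. The groups lay far apart. Its log2 change was 1.54 ± 0.06 (adjusted p = 2.04e-12), but -1.92 with scaling to total reads. Its paralog Slc25a40 did not pass the test (0.31 ± 0.17, adjusted p = 0.114). Slc25a26, the carrier of S-adenosylmethionine, rose by 0.70 ± 0.09 (adjusted p = 5.13e-06) and Slc25a16, linked to coenzyme A transport, by 0.38 ± 0.10 (0.00246), both lower with scaling to total reads. Slc25a32, a folate and flavin carrier, was at 6.44, 2.80 and 2.95 FPKM in ES50, against 8.76, 8.70 and 8.44 in NC, and fell by 1.00 ± 0.18 (adjusted p = 1.21e-04).

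Both iron carriers fell. Slc25a37, mitoferrin 1, was at 4.004, 2.65 and 1.35 FPKM in ES50, against 9.34, 9.55 and 10.2 in NC. All ES50 libraries were below all NC libraries, on 30 reads over the ES50 group and 1124 over NC. It fell by 1.61 ± 0.19 (adjusted p = 1.57e-06). Slc25a28, mitoferrin 2, fell by 0.56 ± 0.09 (3.73e-05), to 15.4 ± 0.616 FPKM in ES50, against 23.1 ± 1.26 in NC.

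Amino acid and acylcarnitine carriers went both ways, 2 of 8 tested higher and 2 lower. Slc25a20, which brings acylcarnitines in for fatty acid oxidation, was at 14.5, 13.1 and 15.4 FPKM in ES50, against 8.50, 7.57 and 9.15 in NC. It rose by 0.70 ± 0.09 (adjusted p = 4.45e-06), but was at -2.30 with scaling to total reads. Slc25a12, an aspartate/glutamate carrier of the malate-aspartate shuttle, rose by 0.56 ± 0.14 (0.00229). The value was 0.34 without ES50 replicate 1 and -2.02 with scaling to total reads. It lost the call when the 2 groups were fitted alone (adjusted p = 0.0574). The other such carrier, Slc25a13, held 0.931, 6.80 and 4.10 FPKM in ES50, against 7.25, 7.29 and 7.40 in NC. The ES50 libraries were low but far apart. Its change of -0.97 ± 0.32 (adjusted p = 0.0133) was -0.40 without ES50 replicate 1, and it was not called when the 2 groups were fitted alone (adjusted p = 0.134). Slc25a44, which takes up branched-chain amino acids, fell by 0.70 ± 0.10 (adjusted p = 9.03e-06).

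Among the remaining members, Slc25a36l1 was at 2.89, 8.12 and 3.18 FPKM in ES50, against 23.4, 21.5 and 21.6 in NC. ES50 replicate 2 was the highest of the low group, which did not overlap with NC. The fall was 2.13 ± 0.23 on the log2 scale (adjusted p = 5.41e-07), on 33 reads over the ES50 group. Slc25a34, a less characterised member, had no reads in any ES50 library, against 1.31, 0.777 and 0.971 FPKM in NC (97 reads). Taking 3 reads over the group as the floor, it was at least 3.21-fold lower. Limma's adjusted p of 1.21e-06 is for the change in log2(FPKM + 1), not for that fold. Over 13 alternatives other than scaling to total reads that change was -3.46 to -0.277, with adjusted p up to 0.0423. Slc25a46, which sits in the outer membrane and takes part in mitochondrial fission and fusion, was higher at 0.36 ± 0.14 (adjusted p = 0.0283; -2.38 with scaling to total reads), with overlapping libraries, and was called in 6 of 13 alternatives other than scaling to total reads. None of the 3 relatives of the uncoupling proteins, Slc25a14, Slc25a27 and Slc25a30, was called by limma in ES50 against NC, where they held 21, 31 and 52 reads over the group.

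**Figure D2:**
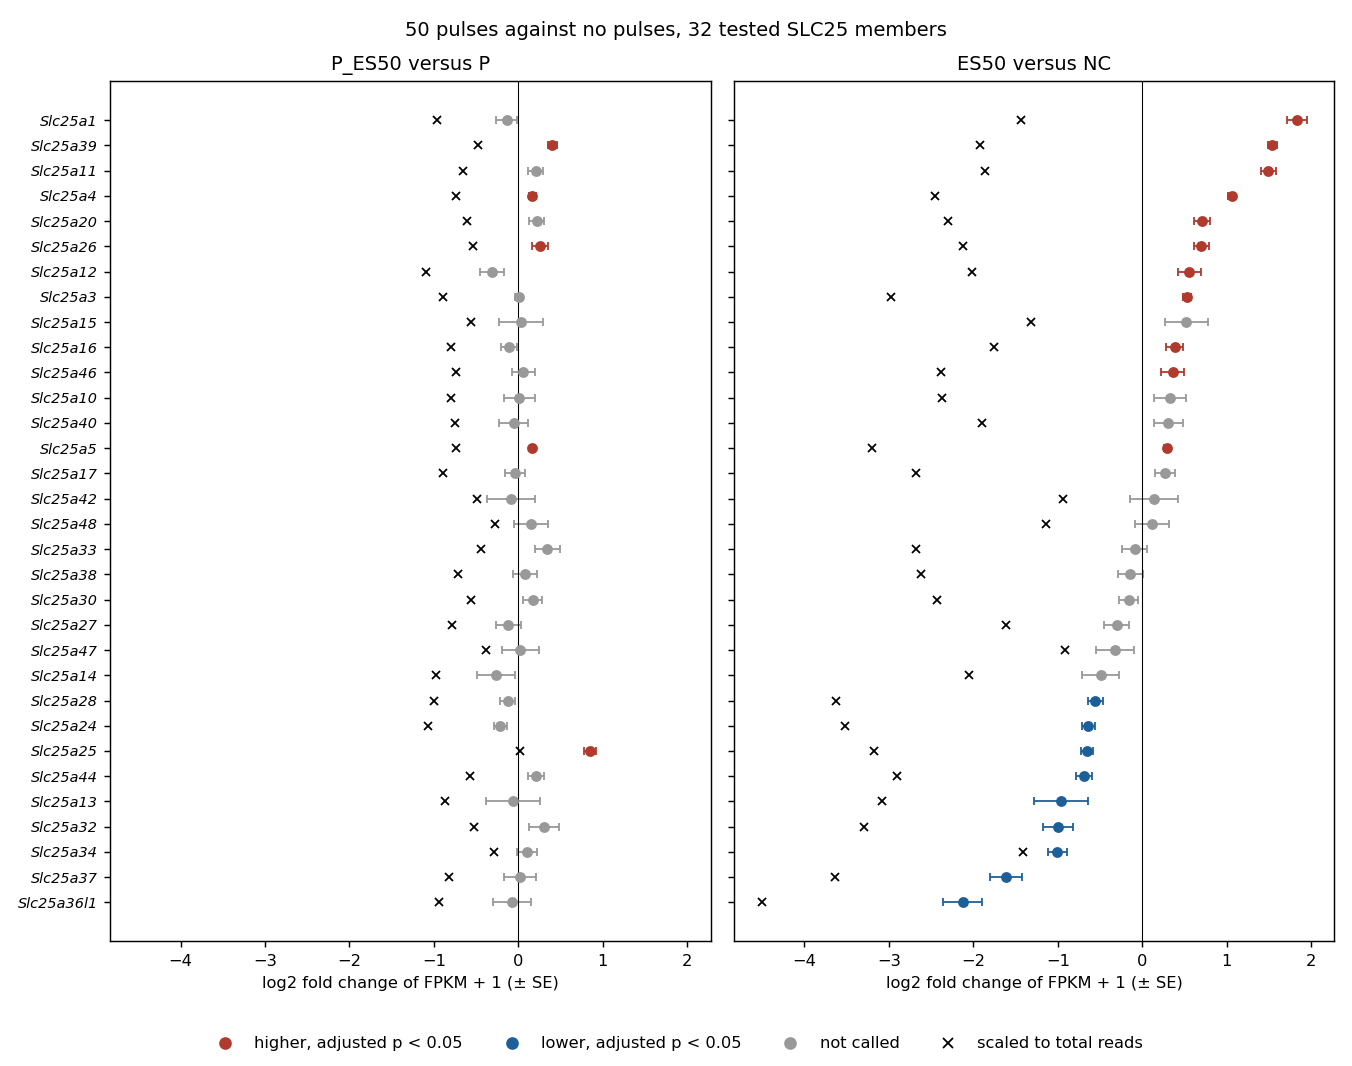
Log2 fold change of FPKM + 1 (horizontal axis, ± SE) for 50 pulses against no pulses in the 32 tested members, with PE (left) and without PE (right). On the deposited scale 5 members are higher and 0 lower with PE, against 11 higher and 9 lower without. Crosses give the values scaled to total reads, where 29 and 32 members are lower (87.8% and 96.3% of all tested genes).

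The ES50 group was also set against ES10, from which it differs by the number of pulses. Of the 32 members 14 were higher (background 33%) and 12 lower (background 41.3%). With scaling to total reads 0 were higher and 32 lower, where 0.302% and 96.3% of all tested genes were. The same ES50 libraries enter this comparison and the one with NC. The largest increases were in Slc25a1 (1.96 ± 0.12), Slc25a39 (1.65 ± 0.06), Slc25a11 (1.63 ± 0.09) and Slc25a4 (1.01 ± 0.04), with adjusted p of 6.03e-10, 7.61e-13, 1.41e-10 and 5.36e-12, all 4 below 0 with scaling to total reads. Slc25a36l1 (-2.35 ± 0.23, adjusted p = 1.57e-07), Slc25a37 (-1.29 ± 0.19, 1.68e-05) and Slc25a44 (-1.15 ± 0.10, 2.63e-08) had the lowest values among tested members with reads in ES50, with a pseudocount of 1. Slc25a47, also called lower, had 4 reads over ES50 (0.286 ± 0.346 FPKM, against 1.10 ± 0.422 in ES10). Its mean was 0.259 times that in ES10, against 0.353 for Slc25a37 and 0.393 for Slc25a44. For Slc25a44 the ES50 libraries were at 2.69, 4.13 and 3.59 FPKM, against 8.35, 9.15 and 8.99 in ES10. Fitted on these 2 groups alone, 17 of the 32 members were called, where 27.8% of all tested genes were higher and 34.8% lower.

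After 10 pulses few members of the family passed the test in the fit of all 6 groups. The branched-chain amino acid carrier Slc25a44 rose in cells with and without PE. With PE, 5 of the 32 members were higher (15.6%, background 13.2%) and 0 lower (background 9.66%) in P_ES10 than in P. With scaling to total reads 5 were higher and 7 lower (background 12.8% and 24.1%). Scaling to nuclear reads gave 3 and 2 (background 9.04% and 14%), and quantile normalization 4 and 2 (background 13.2% and 13.8%). Without PE, 3 were higher in ES10 than in NC (9.38%, background 6.36%) and 0 lower (background 2.21%). The count was 3 and 1 scaled to total reads (background 7.72% and 6.39%) and 1 and 1 scaled to nuclear reads (background 2.99% and 5.2%). Of the calls, 2 were shared, Slc25a44 and Slc25a25, which is 2 of 5 with PE and 2 of 3 without. By limma's unadjusted p under 0.05, 8 members were higher and 1 lower with PE, and 3 higher and 0 lower without. The share of all tested genes at that unadjusted threshold was not counted, so no lean of the family can be read from these counts. Voom on recovered reads called 10 higher and 6 lower with PE, where 22.4% of all tested genes were higher and 20.3% lower. Without PE it called 4 higher and 1 lower, where 15.9% and 7.92% of all tested genes were.

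The summed level of the skeletal myoblast markers was 72.8 to 74.3 FPKM in P_ES10 libraries, against 34.8 to 40.0 in P libraries, and 78.4 to 82.4 FPKM in ES10 libraries, against 51.3 to 53.4 in NC libraries. Myod1 carried most of this rise. Its means were 56.5 FPKM in P_ES10 and 23.4 in P, and 60.2 in ES10 and 32.02 in NC. Acta1 was at 7.37 FPKM in P_ES10 and 4.65 in P, and at 10.2 in ES10 and 9.60 in NC. Ckm was also higher in both pairs, and Myog and Myh3 were lower in both. Des was higher with PE (8.71 FPKM, against 7.82) and lower without (8.80, against 9.10). The part of these marker shifts in the changes after 10 pulses was not tested.

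Slc25a44 was at 8.90, 8.42 and 7.60 FPKM in P_ES10, against 5.01, 5.03 and 4.88 in P. Without PE it was at 8.35, 9.15 and 8.99 FPKM in ES10, against 6.13, 6.42 and 5.97 in NC. In both pairs every library with 10 pulses stood above every library without. The log2 changes were 0.64 ± 0.10 with PE (adjusted p = 1.92e-04) and 0.45 ± 0.10 without (adjusted p = 0.00773). Both were called in 14 of 14 alternatives other than scaling to total reads, and with that scaling they were 0.59 and 0.44.

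Slc25a25, an ATP-Mg/phosphate carrier, was at 10.3, 10.8 and 11.4 FPKM in P_ES10, against 8.72, 8.07 and 7.58 in P, and rose by 0.37 ± 0.07 (adjusted p = 0.00155). In ES10 it was at 11.3, 11.1 and 10.8 FPKM, against 9.37, 9.38 and 8.61 in NC, a rise of 0.26 ± 0.07 (adjusted p = 0.0402) that was called in 5 of 14 alternatives other than scaling to total reads. The libraries did not overlap in either pair. The pyrimidine nucleotide carrier Slc25a33 was higher in P_ES10 than in P at 0.44 ± 0.15 (adjusted p = 0.0405, called in 6 of 14 alternatives) and did not pass in ES10 (0.24 ± 0.15, adjusted p = 0.406). Slc25a34 was at 1.28, 1.21 and 1.42 FPKM in P_ES10, against 0.529, 0.720 and 0.490 in P (0.55 ± 0.12, adjusted p = 0.00297). This was below the change of Slc25a44 with a pseudocount of 1, but above it with a pseudocount of 0.1 (1.06, against 0.73 for Slc25a44) and with scaling to total reads (0.65, against 0.59). Slc25a24, the paralog of Slc25a25, was higher in P_ES10 at 0.23 ± 0.08 (adjusted p = 0.0471, called in 3 of 14 alternatives), and Slc25a26 in ES10 at 0.33 ± 0.09 (adjusted p = 0.0391, called in 5 of 14). With each of the 6 libraries left out in turn, only Slc25a44 was called in ES10 against NC. In P_ES10 against P, 3 members were called (without Slc25a24 and Slc25a33) whenever any library other than P replicate 3 was left out, and 5 without that one, Slc25a24 not among them.

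The abundant carriers did not pass the test after 10 pulses. In P_ES10, Slc25a4 was at 167 ± 4.23 FPKM, against 155 ± 6.95 in P (0.11 ± 0.04, adjusted p = 0.0633), and Slc25a3 at 166 ± 1.503, against 155 ± 2.39 (0.10 ± 0.05, adjusted p = 0.145). Mitoferrin 1 (Slc25a37) had the same fitted value of -0.32 ± 0.19 with and without PE, and did not pass in either (adjusted p = 0.258 and 0.387). Its libraries did not overlap in either pair. With scaling to total reads limma called it lower in both, at -0.43 with PE (adjusted p = 0.00781) and -0.37 without (adjusted p = 0.0363). With the 6 libraries of 50 pulses left out of the fit, 18 members were called with PE (12 higher, 6 lower) and 7 without PE (5 higher, 2 lower). In that fit 22.4% of all tested genes were higher and 20.4% lower with PE, and 15.8% and 8.53% without PE. The main fit shares its estimate of spread over all groups. Replicates correlated at 0.949 to 0.955 in ES50, against 0.986 to 0.988 in P_ES10 and 0.986 to 0.987 in ES10. The number of calls after 10 pulses or with PE alone thus depends on whether the libraries of 50 pulses are in the fit.

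**Figure D3:**
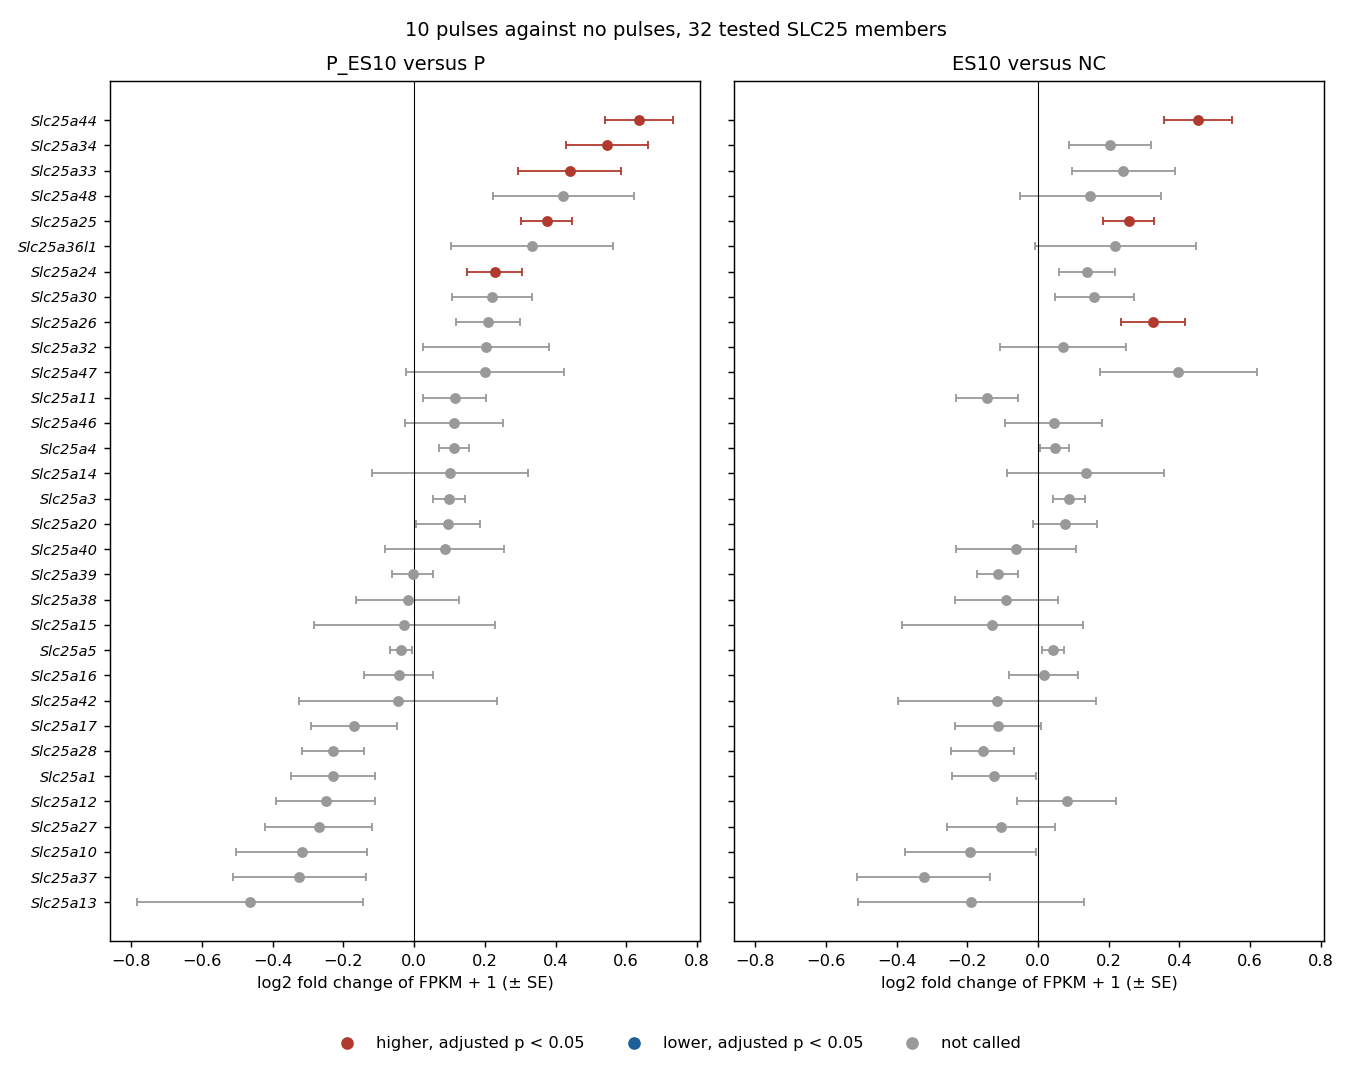
Log2 fold change of FPKM + 1 (horizontal axis, ± SE) for 10 pulses against no pulses in the 32 tested members, with PE (left) and without PE (right). Slc25a44 is called higher in both panels (0.64 and 0.45), and no member is called lower on the deposited scale. With scaling to total reads 7 are lower with PE and 1 without (24.1% and 6.39% of all tested genes).

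With PE alone, 2 carriers passed the test in the fit of all 6 groups. Against NC, 1 of the 32 members was higher in P (3.12%, background 4.72%) and 1 lower (3.12%, background 4.81%). The count was 4 and 2 scaled to total reads (background 20.4% and 4.68%) and 1 and 3 after quantile normalization (background 6.6% and 7.21%). Slc25a5 was at 150, 142 and 156 FPKM in P, against 138, 135 and 137 in NC (0.13 ± 0.03, adjusted p = 0.0210). Slc25a24 was at 13.4, 14.0 and 12.7 FPKM in P, against 16.8, 15.97 and 16.2 in NC (-0.27 ± 0.08, adjusted p = 0.0426). The libraries of neither gene overlapped. Leaving out 1 library at a time left 0 calls in 5 of the 6 cases and 1, Slc25a5, without P replicate 2. By limma's unadjusted p under 0.05, 8 members passed, and the share of all tested genes at that threshold was not counted. Without the libraries of 50 pulses 11 members were called, 5 higher and 6 lower, where 15.4% of all tested genes were higher and 14.6% lower.

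After 50 pulses in cells with PE, the ATP-Mg/phosphate carrier Slc25a25 had the largest called change on the deposited scale (0.02 with scaling to total reads). Against P, 5 of the 32 members were higher in P_ES50 (15.6%, background 14.1%) and 0 lower (background 14.2%). With scaling to total reads 0 were higher and 29 lower, where 0.755% and 87.8% of all tested genes were. Scaling to nuclear reads gave 4 and 1 (background 12.9% and 14.9%), and quantile normalization 5 and 2 (background 13.3% and 15.7%). By limma's unadjusted p under 0.05, 8 were higher and 2 lower, where the share of all tested genes was not counted. By voom 9 were higher and 2 lower, where voom called 20.4% of all tested genes higher and 22% lower. Slc25a25 was at 14.3, 15.8 and 16.1 FPKM in P_ES50, against 8.72, 8.07 and 7.58 in P. Every P_ES50 library was above every other library of the series. Its log2 change was 0.85 ± 0.07 (adjusted p = 6.70e-07), and 0.02 and not called with scaling to total reads (adjusted p = 0.772), on which scale it was the only tested member above 0. Over the other 13 alternatives it was 0.80 to 0.92 and always called.

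Slc25a39 was at 48.3, 47.9 and 50.3 FPKM in P_ES50, against 37.2, 36.7 and 36.2 in P, a change of 0.40 ± 0.06 (adjusted p = 1.01e-04), but -0.48 with scaling to total reads. Slc25a26, Slc25a5 and Slc25a4 were higher at 0.26 ± 0.09, 0.16 ± 0.03 and 0.16 ± 0.04 (adjusted p = 0.0485, 0.00131 and 0.00851), each lower with scaling to total reads. After quantile normalization Slc25a5 was at 0.046 and Slc25a4 at 0.029, and neither was called (adjusted p = 0.240 and 0.564). Slc25a26 was called in 5 of 13 alternatives other than that scaling. Slc25a1 was at 7.998 ± 0.976 FPKM in P_ES50, against 8.89 ± 0.551 in P (-0.14 ± 0.12, adjusted p = 0.426), and Slc25a3 was at 155 FPKM in both groups.

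Against P_ES10, 3 members were higher in P_ES50 (background 10.5%) and 3 lower (background 12.9%). With scaling to total reads 0 were higher and 30 lower, where 0.462% and 86.8% of all tested genes were. Slc25a25 rose by 0.47 ± 0.07 (adjusted p = 2.18e-04) and Slc25a39 by 0.41 ± 0.06 (1.02e-04), and Slc25a5 by 0.20 ± 0.03 (2.77e-04), all 3 below 0 with scaling to total reads. Slc25a34 (-0.45 ± 0.12, adjusted p = 0.0107), Slc25a24 (-0.44 ± 0.08, 6.70e-04) and Slc25a44 (-0.43 ± 0.10, 0.00390) were lower. For Slc25a44 this left 5.76, 5.81 and 6.07 FPKM in P_ES50, against 8.90, 8.42 and 7.60 in P_ES10. In cells with PE, Slc25a25 thus stood at 8.12 ± 0.568 FPKM without pulses, 10.8 ± 0.571 after 10 and 15.4 ± 0.933 after 50, with no overlap between neighbouring groups. In cells without PE it stood at 9.12 ± 0.441 FPKM without pulses, 11.1 ± 0.217 after 10 and 5.43 ± 0.547 after 50.

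The response to 50 pulses was compared between cells with and without PE by the interaction in the same limma model. It was called for 18 of the 32 members, 8 with a positive value (25%, background 31.1%) and 10 with a negative one (31.2%, background 27.9%), a positive value meaning a higher change with PE. With scaling to total reads all 30 called members were positive, where 88.7% of all tested genes were called positive and 0.159% negative. The median over all genes was then 1.65. Slc25a25 was at 1.501 ± 0.10 (adjusted p = 7.28e-09), and it was the only member called in opposite directions in the comparisons with and without PE. Slc25a36l1 (2.05 ± 0.32, adjusted p = 5.62e-05), Slc25a37 (1.63 ± 0.27, 8.53e-05) and Slc25a32 (1.30 ± 0.25, 3.93e-04) fell in ES50 against NC and were not called in P_ES50 against P. With scaling to total reads these carriers were called lower in P_ES50 against P too, at -0.94, -0.82 and -0.53. Slc25a1 was at -1.97 ± 0.17 (adjusted p = 8.78e-08), Slc25a11 at -1.28 ± 0.12 (3.77e-07), Slc25a39 at -1.14 ± 0.08 (1.19e-08) and Slc25a4 at -0.89 ± 0.06 (4.32e-09), but at 0.46, 1.21, 1.44 and 1.73 with scaling to total reads. The mitochondrial read share differed along with these responses (48.6% in P_ES50 and 92.1% in ES50), and its part in them was not tested. For 10 pulses the interaction was called for 0 members (background 0.906%), with 0 by limma's unadjusted p under 0.05 (background not counted) and 0 by voom (background 3.06% positive and 3.55% negative). Its value was 0.18 ± 0.14 for Slc25a44 and 0.12 ± 0.10 for Slc25a25.

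Ratios of related carriers within a library do not depend on how libraries are scaled. For 5 pairs, chosen with earlier results known, groups were set side by side with a two-sided exact permutation test. Its smallest possible p with these group sizes is 0.1, so no ratio could pass 0.05. Slc25a4 over Slc25a5, the muscle-type and the proliferation-type ADP/ATP carrier, was 1.86, 1.99 and 1.99 in ES50, against 1.19, 1.11 and 1.14 in NC (exact p = 0.1). It was 1.03 ± 0.00501 in P_ES50 and 1.03 ± 0.0419 in P (exact p = 0.9). Slc25a24 over Slc25a25 was 0.837, 0.788 and 0.614 in P_ES50, against 1.54, 1.74 and 1.67 in P (exact p = 0.1), so Slc25a25 was the more abundant of the pair per length only in P_ES50 among the 6 group means. In ES50 that ratio was 1.88 ± 0.257, against 1.79 ± 0.0860 in NC (exact p = 0.7). Slc25a39 over Slc25a40 was 26.4 to 38.6 in ES50 and 13.3 to 15.5 in NC, and Slc25a28 over Slc25a37 was 3.88 to 10.9 in ES50 and 2.27 to 2.56 in NC (exact p = 0.1 each). Slc25a12 over Slc25a13 ran from 0.755 to 9.93 within ES50, where the lowest Slc25a13 count in a library was 3 reads. Its libraries did not overlap in any of the 7 comparisons of groups (exact p = 0.1 each). The ratio was 0.541 to 0.591 in NC, 0.682 to 0.746 in ES10 and 0.670 to 0.747 in P. It was 0.760 to 0.924 in P_ES10 and 0.571 to 0.582 in P_ES50. Over all 35 tests of ratios the smallest adjusted p was 0.175.

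**Figure D4:**
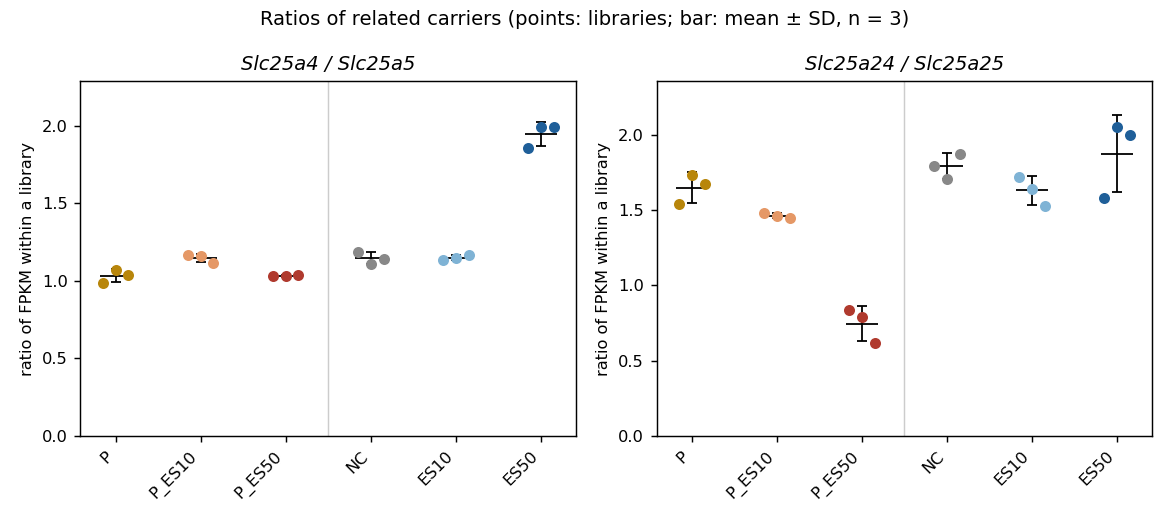
Ratio of FPKM within a library (vertical axes, starting at 0) for the ADP/ATP carriers Slc25a4 and Slc25a5 (left) and the ATP-Mg/phosphate carriers Slc25a24 and Slc25a25 (right); points are libraries, bars the mean ± SD (n = 3). The first ratio stands apart in ES50, at 1.86 to 1.99, and the second in P_ES50, at 0.614 to 0.837. The first is also lower in P (0.989 to 1.07) than in NC (1.11 to 1.19).

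The weight of the family in the transcriptome followed the scale used. Its summed FPKM was 756 ± 8.84 in P_ES50, against 696 ± 11.8 in P, and 1069 ± 38.1 in ES50, against 692 ± 10.1 in NC. The family took 0.280% of nuclear reads in ES50, against 0.199% in NC. Of all reads it took 0.0221% in ES50, against 0.174% in NC, and 0.109% in P_ES50, against 0.187% in P. Within the family, Slc25a4 held 30.6 ± 0.748% of the summed FPKM in ES50, against 22.7 ± 0.673% in NC, and Slc25a5 held 15.7 ± 0.538%, against 19.8 ± 0.128%.

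Genes that work beside the carriers were taken from 3 lists, to be read against the 31.9% of all tested genes that were higher and 40.1% lower in ES50 than in NC. Of the family members that bear another symbol, 3 of 3 tested were higher in ES50 than in NC: Ucp2, an uncoupling protein (47.0 ± 4.47 FPKM, against 13.5 ± 0.553 in NC, 1.73 ± 0.08), and the outer membrane insertases and apoptosis regulators Mtch1 (1.20 ± 0.04) and Mtch2 (1.04 ± 0.12). In the import route, which inserts carriers into the inner membrane, 5 of 8 tested were higher and 0 lower, led by the small chaperone Timm13 (657 ± 19.8 FPKM, against 238 ± 5.41 in NC, 1.46 ± 0.06). Of the inner membrane transporters outside the family 3 of 10 were higher and 3 lower, with the pyruvate carrier subunits Mpc1 (1.48 ± 0.07) and Mpc2 (1.21 ± 0.07) higher and the ABC transporter Abcb8 (-1.17 ± 0.10) lower. With scaling to total reads all 21 tested genes of the 3 lists were lower, as were 96.3% of all tested genes. Ucp2 was then at -1.61, Timm13 at -2.07 and Mpc1 at -1.95. After quantile normalization Timm13 was at 0.54, Mtch1 at 0.67 and Mpc2 at 0.65. In P_ES50 against P, Mtch1, Ucp2, Mpc2, Timm13 and Tomm70a were higher and Abcb8 was lower, and all 21 were lower with scaling to total reads. Over all tested genes 14.1% were higher and 14.2% lower in that comparison, and 87.8% were lower with scaling to total reads.

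What the members share beyond their role was described by gene structure in the deposited table. Over the 32 tested members, the log2 change in ES50 against NC had a Spearman coefficient of -0.12 with exon length and -0.21 with genomic span, against -0.25 and -0.12 over all 11917 tested genes. Members share libraries, and genes are not independent replicates. The median exon length was 1479 bases for the 11 members that were higher, 1575 for the 9 that were lower and 1861.5 for the 12 not called, with ranges that overlapped. Per the deposited table (build Rnor 6.0), Slc25a25 (ENSRNOG00000014338) lies on chromosome 3 from 11442397 to 11452529, Slc25a44 (ENSRNOG00000025269) on chromosome 2 from 187772013 to 187786712, Slc25a1 (ENSRNOG00000038001) on chromosome 11 from 87204175 to 87207264 and Slc25a4 (ENSRNOG00000010830) on chromosome 16 from 49266903 to 49270698.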

How the data were processed

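Poly(A) RNA was sequenced in 18 libraries, with groups taken from the sample labels. The authors deposited FPKM for 32545 genes, 1 column a library, on build Rnor 6.0, per the submitters' processing notes. Aligner, counting tool and strandedness are not stated in the labels. Since FPKM times gene length came out in whole reads for 100% of values (tolerance 0.01 of a read), reads were recovered. Read numbers and floors cover counting error only.

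Genes reaching 1 FPKM in at least 3 libraries (11917) entered limma 3.58.1 (R 4.3.3) as log2(FPKM + 1), with all 6 groups in a single fit and a mean-variance trend. That pseudocount makes changes of low genes look smaller. Benjamini-Hochberg adjustment ran over all tested genes in each of 9 contrasts: 7 pairs of groups and 2 interactions of PE with pulses. Ratios were compared by exact permutation tests (scipy 1.17.1). Other tools were the R package data.table (version 1.17.8), pandas 2.3.3, numpy 2.4.6, matplotlib 3.10.9 and Python 3.11.15. The fit was also run on simulated counts, drawn with the same spread beyond counting error in every group. Whether that setting holds for the ES50 libraries was not tested.

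The members, the 7 role lists, the 3 other lists and the ratio pairs were chosen with earlier results of these data known. Named by rule were, per contrast, up to 5 largest called increases and 5 decreases (with no overlap of libraries, for pairs of groups), a set of 12 metabolite and iron carriers, and the tested members of highest and lowest mean. Slc25a10, Slc25a14, Slc25a16, Slc25a27, Slc25a30, Slc25a40 and Slc25a46, and in some contrasts Slc25a25, Slc25a26, Slc25a33 and Slc25a44, were named after their values were seen. Alternatives were a pseudocount of 0.1, no filter, scaling to total or nuclear reads, quantile normalization, voom on recovered reads, fits on the compared groups only, fits without the libraries of 50 pulses, a replicate block and leaving out each library.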

Additional observations from a re-analysis of the deposited data

Results flagged for a closer look

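For 18 carriers the response to 50 pulses differed between cells with and without PE by the test of the difference itself, the interaction in limma's model (the change with PE minus the change without, in log2). The value was positive for Slc25a36l1 (2.05), Slc25a37 (1.63), Slc25a25 (1.501), Slc25a32 (1.30), Slc25a34 (1.10), Slc25a44 (0.90), Slc25a24 (0.43) and Slc25a28 (0.43). It was negative for Slc25a1 (-1.97), Slc25a11 (-1.28), Slc25a39 (-1.14), Slc25a4 (-0.89), Slc25a12 (-0.87), Slc25a3 (-0.52), Slc25a20 (-0.49), Slc25a16 (-0.49), Slc25a26 (-0.44) and Slc25a5 (-0.13). Over all tested genes 31.1% were called positive and 27.9% negative. With scaling to total reads 30 members were called and all were positive, where 88.7% of all tested genes were called positive. Mitochondrial reads took 48.6% in P_ES50 and 5.48% in P, and 92.1% in ES50 and 12.9% in NC, and their part in these values was not tested. No group here holds 4 or more samples, so no single library was tested as standing apart from its group.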

How the results depend on the processing

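Over all alternatives, 1945 of the named members' log2 changes kept their direction and their side of the threshold, 82 lost and 73 gained the call, 52 that were not called in either fit changed sign, and 47 reversed, 41 of them with scaling to total reads. That scaling gave, in ES50 against NC, Slc25a1 -1.43, Slc25a39 -1.92, Slc25a11 -1.87, Slc25a4 -2.46, Slc25a20 -2.30, Slc25a3 -2.98, Slc25a5 -3.20 and Slc25a12 -2.02. Against ES10 they were -1.27, -1.77, -1.68, -2.47, -2.34, -3.03, -3.20 and -2.07 in the same order. In P_ES50 against P it gave Slc25a39 -0.48, Slc25a26 -0.54, Slc25a5 -0.73, Slc25a4 -0.74, Slc25a3 -0.89, Slc25a11 -0.66, Slc25a20 -0.61 and Slc25a37 -0.82. Against P_ES10 it gave Slc25a25 -0.28, Slc25a39 -0.39, Slc25a5 -0.60, Slc25a1 -0.64, Slc25a4 -0.76, Slc25a11 -0.68, Slc25a20 -0.63, Slc25a28 -0.68 and Slc25a37 -0.39. In the interaction for 50 pulses it gave Slc25a1 0.46, Slc25a11 1.21, Slc25a39 1.44, Slc25a4 1.73, Slc25a12 0.93, Slc25a3 2.08, Slc25a5 2.46 and Slc25a20 1.68. Quantile normalization reversed Slc25a3 (-0.060) and Slc25a5 (-0.28) in ES50 against NC, the same genes against ES10 (-0.058 and -0.23), Slc25a3 in P_ES50 against P (-0.12) and Slc25a5 in the interaction for 50 pulses (0.33). The cause was not tested.

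Members called were 32 in ES50 against NC, 29 in P_ES50 against P, 30 against P_ES10 and 30 in the interaction for 50 pulses with scaling to total reads, and 6 in P against NC and 12 in P_ES10 against P. Over all tested genes that scaling called 96.3% lower in ES50 against NC, 87.8% in P_ES50 against P and 86.8% against P_ES10. In that interaction it called 88.7% positive. Quantile normalization called 4 in P against NC (background 6.6% higher and 7.21% lower), and no filter 3 in P_ES10 against P (background 7.46% and 4.88%). voom called 5 in ES10 against NC, 10 in P against NC, 16 in P_ES10 against P, 11 in P_ES50 against P and 12 against P_ES10. In the same order, voom called 15.9%, 15.2%, 22.4%, 20.4% and 16% of all tested genes higher. It called 7.92%, 14.4%, 20.3%, 22% and 21.1% of them lower. Fits on the compared groups only, with fewer libraries, called 17 in ES50 against ES10, 7 in P against NC, 15 in P_ES10 against P, 10 in P_ES50 against P and 11 against P_ES10. In the same order, these fits called 27.8%, 11.9%, 20.9%, 17.1% and 14.2% of all tested genes higher. They called 34.8%, 10.9%, 18.7%, 18.3% and 17.4% of them lower. Without the libraries of 50 pulses 7 were called in ES10 against NC, 11 in P against NC and 18 in P_ES10 against P. With 1 library left out, calls ranged from 1 to 1 in ES10 against NC, 19 to 25 in ES50 against NC, 22 to 24 in ES50 against ES10, 0 to 1 in P against NC, 3 to 5 in P_ES10 against P, 4 to 6 in P_ES50 against P, 6 to 6 against P_ES10, 0 to 0 in the interaction for 10 pulses and 17 to 21 in that for 50. Shares over all tested genes were not counted for the fits with 1 library left out.

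Same-numbered libraries correlated at -0.0879 to 0.101 after group means were removed, over 0.1 in 1 of 21 pairs, so the numbers were not taken as pairs. With the replicate block 1 member was called in ES10 against NC, 1 in P against NC and 3 in P_ES10 against P. Depth limits ES50 most: the tested members had a median of 88 reads over its libraries, against 1108.5 over NC, and 5 had under 30.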
